A study of Homo sapiens with 19 samples.

Results

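The BTG and TOB genes encode a small family of antiproliferative proteins. The 5 members examined here, BTG1, BTG2, BTG3, TOB1 and TOB2, were chosen by name, with earlier results of these data known. All 5 are listed in each of the 3 gene tables of the series, among 25365 genes for OCI-LY10, 25267 for TMD8 and 25266 for SUDHL2. The 3 lines are established human lines of diffuse large B-cell lymphoma (DLBCL) that the labels place in the activated B-cell-like subtype. Every library came from cells transduced with a doxycycline-induced short hairpin RNA and kept in 20 ng/ml doxycycline for 2 days, so the controls share the drug and a hairpin with the other groups. The groups are the control hairpin, shEGR1#8 and shEGR1#9, the last 2 being hairpins against EGR1, an immediate early transcription factor. OCI-LY10 has 3 libraries per group, and TMD8 and SUDHL2 have 1 per group. Whether the transduced cells were clones or pools is not given in the sources used here. Nor do the labels state that replicate libraries came from different cultures, so each p-value reflects the scatter among these libraries alone, possibly a technical one.

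BTG and TOB proteins share an amino-terminal domain that binds the CNOT7 and CNOT8 deadenylases of the CCR4-NOT complex, which shortens the poly(A) tails of messenger RNAs. They are known for slowing entry into the cell cycle. BTG2 is a target of p53 and an immediate early gene, TOB1 and TOB2 also bind poly(A)-binding protein, and in DLBCL both BTG1 and BTG2 are recurrently mutated.

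The stretches upstream of 3 start sites are shown because BTG2 and BTG3 were higher in the OCI-LY10 libraries labelled with EGR1 hairpins whereas BTG1 was not. Each runs 5′ to 3′ over the 250 bases before the start site, from RefSeq's GRCh38.p14 promoter table (BTG2 chr1:203305269-203305518, plus strand; BTG3 chr21:17612902-17613151, minus strand; BTG1 chr12:92145847-92146096, minus strand). Capitals mark matches to the EGR motif GCGNGGGCG.
BTG2: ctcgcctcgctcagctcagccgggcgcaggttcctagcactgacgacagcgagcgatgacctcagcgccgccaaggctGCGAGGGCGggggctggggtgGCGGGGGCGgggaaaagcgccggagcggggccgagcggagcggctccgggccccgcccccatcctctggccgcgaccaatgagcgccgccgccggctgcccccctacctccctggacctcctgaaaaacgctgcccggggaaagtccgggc
BTG3: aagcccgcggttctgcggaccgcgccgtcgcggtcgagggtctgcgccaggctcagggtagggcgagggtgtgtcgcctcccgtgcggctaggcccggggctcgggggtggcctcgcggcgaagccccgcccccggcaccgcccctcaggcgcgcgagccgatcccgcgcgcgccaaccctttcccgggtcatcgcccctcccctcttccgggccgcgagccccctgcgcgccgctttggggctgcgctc
BTG1: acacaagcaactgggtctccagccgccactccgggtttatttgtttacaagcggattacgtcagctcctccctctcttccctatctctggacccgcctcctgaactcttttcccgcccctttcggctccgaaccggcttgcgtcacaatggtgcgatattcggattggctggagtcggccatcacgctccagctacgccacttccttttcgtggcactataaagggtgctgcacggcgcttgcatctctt
The motif was searched on both strands in windows from 250 bases before to 50 bases after the start. The BTG2 window held 2 matches, which begin 172 and 151 bases before the start and each overlap a GC box (GGGCGG). No match was found in the windows of BTG1, BTG3, TOB2 or in either of the 2 windows listed for TOB1. Of 35116 promoter windows of the same length, 9.43% held the EGR motif. GC boxes, present in 45% of windows, numbered 3 each for BTG2 and BTG3 and 1 for BTG1. The CRE half-site TGACG, present in 24.6%, was found 2 times for BTG1, 1 time for BTG2 and not for BTG3. GC content was 73.3% for BTG2, 77.3% for BTG3 and 56% for BTG1. A match describes letters only, and binding was not analysed here.

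The levels are in FPKM, sequenced fragments scaled to gene length and library size. In OCI-LY10 the libraries resembled each other in summed FPKM (431993 to 445028) and in genes at 1 FPKM or more (10319 to 10499). EGR1, the hairpins' target, was not lower in the hairpin libraries of OCI-LY10 and TMD8, and was lower in those of SUDHL2. Its level was 8.57, 9.59 and 12.3 FPKM in the OCI-LY10 controls, 10.04, 11.4 and 20.5 FPKM in the libraries labelled shEGR1#8, and 10.8, 11.8 and 22.7 FPKM in those labelled shEGR1#9. The groups overlapped, and the difference on the log2(FPKM + 1) scale was 0.42 (95% interval -0.18 to 1.03; limma adjusted p = 0.349). Without the shEGR1#8 or the shEGR1#9 library numbered 3 it was 0.28 or 0.27, and without both 0.12 (limma adjusted p = 0.458, 0.522 and 0.555). With the replicate number as a block the difference stayed at 0.42 (limma adjusted p = 0.054). Within each replicate number both hairpin values lay above the control, although no pairing of controls with hairpin libraries was seen in the data. In TMD8, EGR1 went from 7.31 FPKM in the control library to 10.8 and 9.95 FPKM with the 2 hairpins, and in SUDHL2 from 17.0 FPKM to 13.7 and 15.4 FPKM, with no replicates in either line. The hairpin groups are therefore called by their labels throughout. The 2 TMD8 hairpin libraries stand apart from their control. Over 9531 protein-coding genes their correlation with it was 0.957 (#8) and 0.956 (#9), against 0.971 and 0.976 with the SUDHL2 control. The TMD8 and SUDHL2 controls also correlated at 0.957 with each other. OCI-LY10 libraries correlated at 0.749 to 0.810 with those of TMD8 and SUDHL2. Short non-coding RNA took 36.3% of summed FPKM in the TMD8 control, 63.1 and 60.5% in the TMD8 hairpin libraries, 53.6 to 55.3% in SUDHL2 and at most 0.604% in OCI-LY10. All 8 B-cell markers were at 1 FPKM or more in every library. In OCI-LY10 the 8 myeloid markers and 8 or 9 of the 9 listed T and NK markers lay under 0.1 FPKM, and of 10 stromal, erythroid and epithelial markers EPCAM and PECAM1 were at 1 FPKM or more, with a summed level of the 10 of 10.9 to 14.5 FPKM.

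The first comparison asked how the 5 genes differed between control and EGR1 hairpin libraries of OCI-LY10. BTG2 and BTG3 rose with both hairpins, and BTG1, TOB1 and TOB2 did not pass the test. All 5 passed the filter on low values (at least 1 FPKM in at least 3 of 9 libraries), and 2 of 5 were called at an adjusted p under 0.05, both upward. Among all 10612 genes tested, 8.56% were called in either direction and 5.84% upward. Differences below are on the log2(FPKM + 1) scale, on which the median of all genes was 0.03. In bulk RNA, fewer cells of a kind and less RNA per cell cannot be told apart.

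BTG2, the family member known as a p53 target, measured 70.6, 74.9 and 68.1 FPKM in the controls. It measured 102.5, 102.9 and 109.2 FPKM in the libraries labelled shEGR1#8 and 97.5, 99.6 and 103.9 FPKM in those labelled shEGR1#9. Every hairpin library lay above every control, with a gap far wider than the spread within any group. The means were 71.2 ± 3.43 FPKM for control, 104.9 ± 3.77 FPKM for shEGR1#8 and 100.3 ± 3.26 FPKM for shEGR1#9 (SD, n = 3 libraries each). The difference of both hairpins from control was 0.52 (SE 0.0498, 95% interval 0.41 to 0.63; limma adjusted p = 0.000606). It was 0.55 for shEGR1#8 (limma adjusted p = 0.00154) and 0.49 for shEGR1#9 (limma adjusted p = 0.00252), both set against the same 3 controls. This call stood in all 16 alternative fits, with a difference of 0.49 to 0.56.

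BTG3, a family member whose product also binds the deadenylase, measured 29.2, 35.3 and 31.0 FPKM in the controls. It measured 44.1, 39.9 and 39.9 FPKM with shEGR1#8 and 42.5, 40.4 and 42.3 FPKM with shEGR1#9. The groups did not overlap, although the second control came closer to the hairpin libraries than the other two. The control, shEGR1#8 and shEGR1#9 libraries averaged 31.8 ± 3.17, 41.3 ± 2.45 and 41.7 ± 1.20 FPKM (SD over 3 libraries). The difference was 0.38 (SE 0.0675, 95% interval 0.22 to 0.53; limma adjusted p = 0.0115), with 0.37 for shEGR1#8 and 0.38 for shEGR1#9 (limma adjusted p = 0.0312 and 0.0275). The call depended on single controls: without the first one the difference was 0.32 (limma adjusted p = 0.0633), and without the last it was 0.36 (limma adjusted p = 0.0687). BTG3 overlaps CXADR, a cell adhesion gene, which lay between 0.885 and 0.949 FPKM in controls, 0.652 and 0.851 FPKM with shEGR1#8 and 0.312 and 0.587 FPKM with shEGR1#9. Because the library kit does not mark strand, reads of overlapping genes cannot be told apart.

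BTG1, the closest relative of BTG2, measured 23.1, 24.9 and 20.7 FPKM in the controls. It measured 24.4, 22.9 and 21.7 FPKM with shEGR1#8 and 23.3, 22.7 and 21.4 FPKM with shEGR1#9. The 3 groups spanned the same range. The difference was -0.01 (95% interval -0.16 to 0.14; limma adjusted p = 0.944), so a change as large as that of BTG3 lies outside the interval.

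TOB1 measured 5.14, 4.33 and 4.81 FPKM in the controls, 5.85, 6.20 and 5.93 FPKM with shEGR1#8, and 5.28, 4.55 and 5.997 FPKM with shEGR1#9. The shEGR1#8 libraries lay above all controls, and the second shEGR1#9 library fell among them. The difference of both hairpins was 0.20 (95% interval 0.02 to 0.38; limma adjusted p = 0.155), with 0.28 for shEGR1#8 (limma adjusted p = 0.118) and 0.12 for shEGR1#9 (limma adjusted p = 0.510). Its antisense partner TOB1-AS1, whose reads cannot be told apart from those of TOB1 where they overlap, was at most 0.382 FPKM.

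TOB2 measured 10.2, 9.51 and 9.98 FPKM in the controls, 10.3, 9.71 and 11.1 FPKM with shEGR1#8, and 10.7, 10.8 and 11.7 FPKM with shEGR1#9. The control and shEGR1#8 groups overlapped, and the shEGR1#9 libraries lay just above the highest control. The difference of both hairpins was 0.10 (95% interval -0.03 to 0.23; limma adjusted p = 0.293), and that of shEGR1#9 alone 0.15 (limma adjusted p = 0.267).

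**Figure D1:**
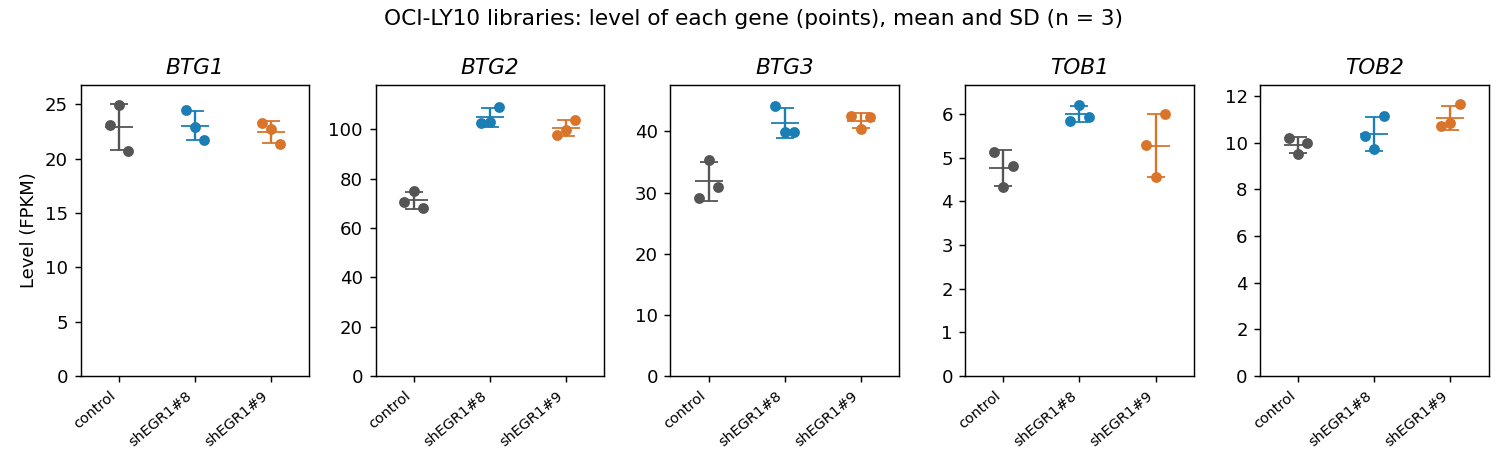
Level of each gene in FPKM (linear axis from 0) in the 9 OCI-LY10 libraries. Points are libraries, the horizontal line is the group mean and the bars are the SD over 3 libraries. BTG2 controls sit at 68.1 to 74.9 FPKM with all 6 hairpin libraries at 97.5 FPKM or above, BTG3 groups also do not overlap, and the BTG1 groups span the same range.

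Complete separation, with all 6 hairpin libraries above all 3 controls, was seen for 2 of the 5 genes, BTG2 and BTG3, and for 12.9% of all genes tested. None of the 5 had all hairpin libraries below all controls, a pattern of 8.22% of genes. Taken singly, each hairpin called the same 2 genes, against 5.33% of all genes for shEGR1#8 (3.71% upward) and 5.09% for shEGR1#9 (3.55% upward). The BTG3 call was lost in 8 of 16 alternatives for shEGR1#8 and in 7 of 16 for shEGR1#9. For shEGR1#8 it was lost without control 1 or 3 (limma adjusted p = 0.114 and 0.130), without the first shEGR1#8 library (0.0675) and without any 1 of the shEGR1#9 libraries (0.0543 to 0.0588). For shEGR1#9 it was lost without control 1 or 3 (limma adjusted p = 0.106 and 0.116) and without any 1 of its own libraries (0.0858 to 0.110). The replicate block, which treats equal replicate numbers as pairs, also ended it (0.0689 and 0.0653).

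**Figure D2:**
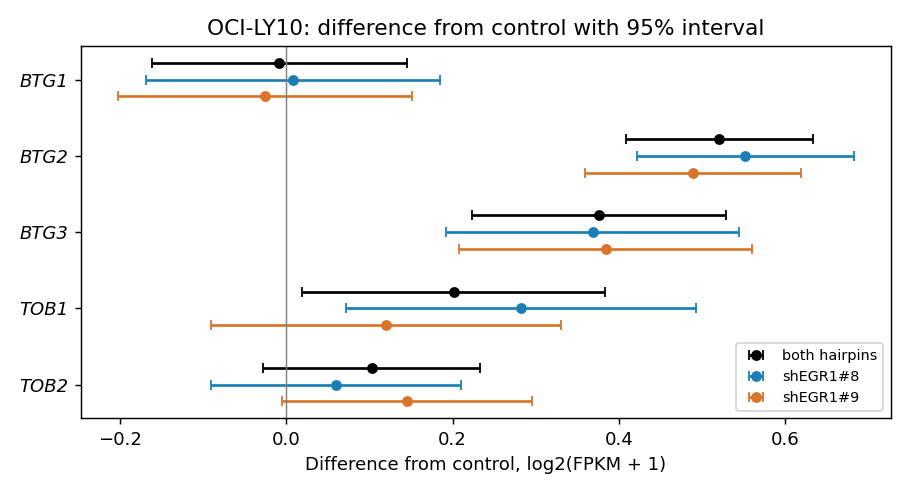
Difference from control on the log2(FPKM + 1) scale for each gene in OCI-LY10, for both hairpins averaged and for each one. Points are limma estimates and bars are 95% intervals. The intervals of BTG2 (0.41 to 0.63 for both hairpins) and BTG3 (0.22 to 0.53) lie above 0, and those of BTG1 and TOB2 include it. The intervals of TOB1, which was not called, lie above 0 for both hairpins (0.02 to 0.38) and shEGR1#8 (0.07 to 0.49). For shEGR1#9 the TOB1 interval includes 0.

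The hairpins were then set against each other. None of the 5 genes and none of the 10612 genes tested (0.00%) differed between shEGR1#9 and shEGR1#8 by limma, while 267 genes had an unadjusted p under 0.05 and no BTG or TOB gene was among them. The difference of shEGR1#9 from shEGR1#8 was -0.06 for BTG2 (95% interval -0.19 to 0.07) and 0.02 for BTG3 (-0.16 to 0.19). TOB1 had the largest difference of the 5, at -0.16 (-0.37 to 0.05). With the 6 hairpin libraries alone and their replicate numbers as a block, limma again called 0 genes (310 at an unadjusted p under 0.05), and the intervals were -0.21 to 0.08 for BTG2 and -0.15 to 0.18 for BTG3.

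The order of levels was the same in all 9 OCI-LY10 libraries: BTG2 highest, then BTG3, BTG1, TOB2 and TOB1. No neighbouring pair in that order overlapped in any group. Among the 10368 genes at 1 FPKM or more in the control mean, BTG2 stood at percentile 90.1, BTG3 at 76.9, BTG1 at 69.3, TOB2 at 46.1 and TOB1 at 27.0. BTG2 supplied 50.3 to 51.1% of the summed FPKM of the 5 genes in controls and 54.4 to 58.1% in hairpin libraries.

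Ratios within a library, which do not depend on how libraries were scaled to each other, were compared for all 10 pairs of the 5 genes, a test added after their values had been seen. The BTG2 to BTG1 ratio of FPKM was 3.00 to 3.29 in controls and 4.18 to 5.03 in hairpin libraries. The BTG3 to BTG1 ratio was 1.26 to 1.496 against 1.74 to 1.98, and the BTG2 to TOB2 ratio 6.83 to 7.88 against 8.91 to 10.6. In these 3 pairs the groups did not overlap. The log2 ratios differed by 0.54, 0.40 and 0.41, each with a two-sided exact permutation p of 0.0238, the smallest that 84 arrangements of 3 against 6 libraries allow, and 0.0794 after Benjamini-Hochberg adjustment over the 10 pairs. The BTG2 to BTG3 ratio was 2.12 to 2.42 in controls and 2.29 to 2.74 in hairpin libraries, which overlapped (exact permutation p = 0.0714, adjusted 0.119). A ratio shows that 2 genes changed unequally, and not that either kept its level.

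Across the 9 libraries, which share the hairpin contrast, BTG2 and BTG3 had a Pearson r of 0.916 on the log2(FPKM + 1) scale, BTG2 and TOB1 0.663, and BTG2 and BTG1 -0.009. EGR1 had an r of 0.773 with TOB2, 0.536 with BTG2 and -0.669 with BTG1. Its highest values were in the hairpin libraries numbered 3. When both of those libraries were left out, an alternative added after the values were seen, BTG2 and BTG3 were still called for both hairpins averaged. For each hairpin on its own the BTG3 call was then lost, at 0.39 for shEGR1#8 and 0.37 for shEGR1#9 (limma adjusted p = 0.0558 and 0.0631).

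The genes whose pattern over the 9 libraries was most like each member, of 7543 candidates with a mean of at least 5 FPKM, were found by Pearson r. For BTG2 they were HLA-DQB1 (r = 0.993), MCAM, a cell adhesion molecule (0.99), and CDKN1A, the cyclin-dependent kinase inhibitor p21 (0.989). HLA-DQB1 is uncertain because how well its reads were assigned is not known here. MCAM was at 7.71 to 8.27 FPKM in controls and 11.8 to 13.6 FPKM in hairpin libraries, and CDKN1A at 21.7 to 25.2 FPKM and 44.5 to 55.0 FPKM. For BTG3 they were ENPP5 (0.984), OTUD4 (0.965) and the deubiquitinase USP4 (0.964). USP4 was at 11.4 to 12.01 FPKM in controls and 13.9 to 14.7 FPKM in hairpin libraries. ENPP5 and USP4 passed the test of hairpins against control (limma adjusted p = 0.0117 and 0.009985), and OTUD4 did not (limma adjusted p = 0.0629). For BTG1 they were SOAT1 (0.921), CENPK (0.872) and PDHX (0.869), none of which passed the test of hairpins against control. For TOB1 they were ALOX5AP (0.908), THAP1 (0.89) and PDE8A (0.887), and for TOB2 TMEM109 (0.96), MGC72080 (0.952) and TMEM179B (0.949), which did not pass it either. All these genes were picked by likeness over the same 9 libraries. Whether they pass is therefore not independent of the member they resemble.

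The deadenylation machinery that BTG and TOB proteins act through was examined next. Of 16 genes of CCR4-NOT, PAN2-PAN3, PARN and poly(A)-binding proteins, 0 passed limma's test in either direction. An unadjusted p under 0.05 was found for 3 of them, and for 2767 of all 10612 genes tested. The median difference was 0.01 against 0.03 for all genes. CNOT7, a catalytic subunit bound directly by the family, was at 53.4 ± 2.98 FPKM in controls, 44.1 ± 5.97 FPKM with shEGR1#8 and 44.1 ± 1.05 FPKM with shEGR1#9 (SD, n = 3 each). Its difference was -0.28 (95% interval -0.46 to -0.09; limma adjusted p = 0.0741), which missed the threshold and crossed it in 5 of 16 alternatives, at adjusted p from 0.0197 to 0.0476, among them the fits without shEGR1#8 library 2 or 3 (0.0467 and 0.0211). CNOT8, the paralogue of CNOT7, was at 23.7, 24.0 and 23.8 FPKM in the 3 groups (difference 0.01; limma adjusted p = 0.947), with a sign that flipped with the scaling. CNOT6 and CNOT6L, the other catalytic pair, differed by -0.12 and 0.10 (limma adjusted p = 0.449 and 0.390).

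Of the RNA-binding adaptors that bring CCR4-NOT to particular messages, 10 of 15 were tested, 2 rose and 0 fell, with a median of 0.08. Of all genes, 5.84% were called upward and 2.71% downward. ZFP36 (tristetraprolin, which binds AU-rich elements) went from 24.1 ± 1.23 FPKM to 41.8 ± 9.77 FPKM with shEGR1#8 and 45.1 ± 9.22 FPKM with shEGR1#9 (SD, n = 3 each), a difference of 0.80 (limma adjusted p = 0.0141). RC3H2, one of the roquin proteins that bind stem-loops, went from 6.76 FPKM to 8.23 and 8.43 FPKM, a difference of 0.26 (limma adjusted p = 0.0184). Both calls were lost when any 1 of the 3 controls was left out, with limma adjusted p of 0.0558 to 0.0767 for ZFP36 and 0.0776 to 0.09 for RC3H2, and that of RC3H2 also without the second shEGR1#9 library (0.0529). Of the other proteins reported to bind the family, such as the arginine methyltransferase PRMT1 and SMAD proteins, 5 of 9 were tested and 0 passed limma's test. Of these, 1, RARA, had an unadjusted p under 0.05, as did 2767 of all 10612 genes tested.

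**Figure D3:**
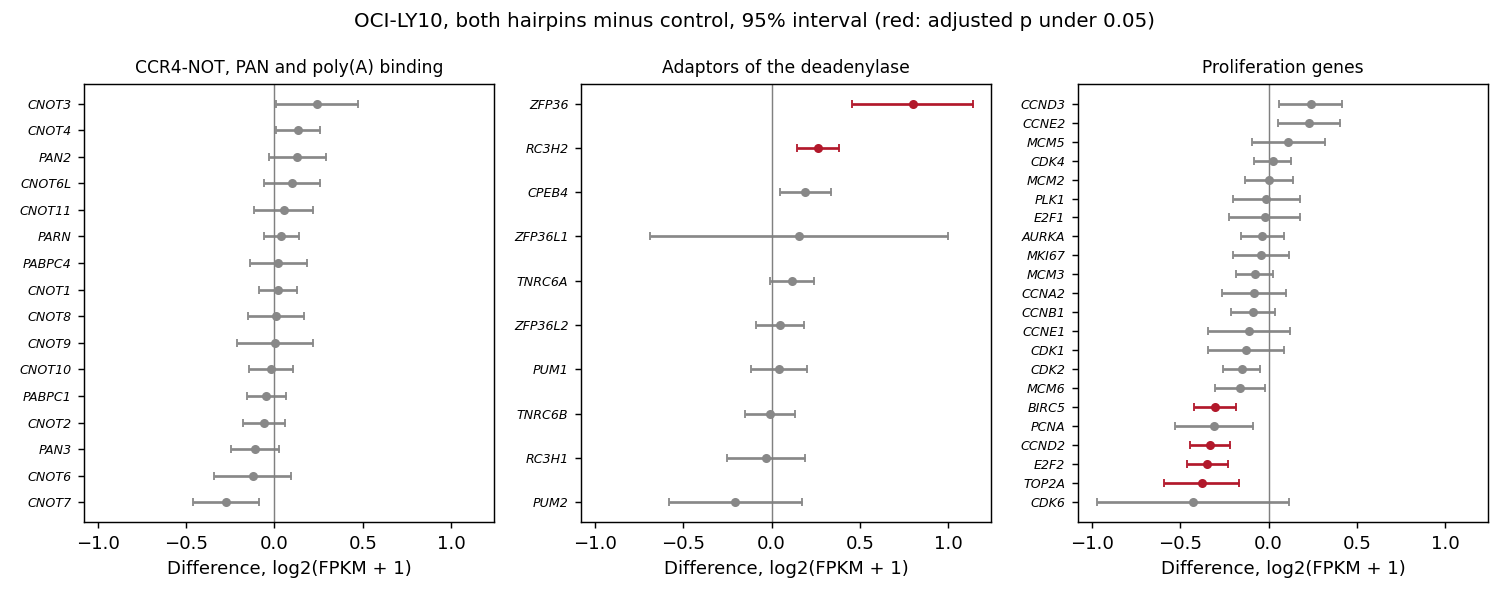
Difference of both hairpins from control in OCI-LY10 on the log2(FPKM + 1) scale for tested genes of 3 lists, with 95% intervals; red marks an adjusted p under 0.05. No gene of the deadenylation list is red, ZFP36 (0.80) and RC3H2 (0.26) are the red adaptors, and 4 of 22 proliferation genes are red, all below 0.

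Genes of the programmes in which the family is placed moved in small numbers. Of 25 p53 targets other than BTG2, 20 were tested, 2 rose and 0 fell, where 5.84% of all genes were called upward, and the median was -0.03. CDKN1A rose by 1.03 (limma adjusted p = 0.000182) and the kinase PLK3 by 0.62 (limma adjusted p = 0.00716), whereas MDM2, which encodes the ubiquitin ligase of p53, differed by -0.17 (limma adjusted p = 0.237). MDM2 was named after its value was seen. Of 22 proliferation genes 0 rose and 4 fell, with a median of -0.09, where 2.71% of all genes were called downward. CCND2, a D-type cyclin, fell by 0.33 (limma adjusted p = 0.00571), E2F2 fell by 0.35 (limma adjusted p = 0.00585), BIRC5, which encodes survivin, fell by 0.30 (limma adjusted p = 0.0102), and TOP2A, a topoisomerase, fell by 0.38 (limma adjusted p = 0.0393). The BIRC5 call was lost without the first or the second control (0.0633 and 0.0546), and the TOP2A call in 8 of 16 alternatives, which include leaving out any 1 control (0.0776 to 0.159) or any 1 shEGR1#9 library (0.0612 to 0.0872). Of 14 genes tied to lymphocyte quiescence 10 were tested, with a median of 0.01, and TXNIP, an inhibitor of thioredoxin, rose by 0.33 (limma adjusted p = 0.00872) while S1PR1, a receptor for sphingosine 1-phosphate, fell by 0.48 (limma adjusted p = 0.00876). Both calls were lost without the first control (0.0539 and 0.0513). Among 8 B-cell markers 1 rose, CD79A, a subunit of the B-cell receptor, by 0.65 (limma adjusted p = 0.00926; lost without control 2 or control 3, at 0.0527 and 0.0547), and 0 fell. The summed level of the 8 was 2047 to 2185 FPKM in controls and 2315 to 2599 FPKM in hairpin libraries. Most of that gap lies in CD79A, at a mean of 591 FPKM in controls, 939 FPKM with shEGR1#8 and 916 FPKM with shEGR1#9. MS4A1, which encodes CD20, was at 323, 272 and 272 FPKM in the same order (limma adjusted p = 0.110), and the median difference of the list was 0.03, as for all genes. MS4A1 was named after its value was seen.

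TMD8 and SUDHL2 have 1 library per group, so there is no replicate check and no test, and a gene is counted where it is past 1.5-fold. BTG2 was the highest of the 5 genes in all 6 libraries. Below it the order differed from OCI-LY10: TOB1, the lowest in OCI-LY10, came second in every one of them. Since each table may have its own normalization, levels across lines are side by side only.

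In the libraries labelled TMD8, BTG2 measured 58.4 FPKM in the control, 77.4 FPKM with shEGR1#8 and 81.6 FPKM with shEGR1#9, differences of 0.40 and 0.48. BTG1 measured 28.6, 17.1 and 18.9 FPKM (-0.71 and -0.58), BTG3 20.8, 14.2 and 13.6 FPKM (-0.52 and -0.58), and TOB1 37.3, 23.5 and 26.4 FPKM (-0.64 and -0.48). TOB2 measured 12.1, 12.8 and 15.1 FPKM (0.07 and 0.30). BTG2 and TOB2 were thus above the control with either hairpin, and BTG1, BTG3 and TOB1 below it. Past 1.5-fold on the log2(FPKM + 1) scale were BTG1 and TOB1 with shEGR1#8, both lower, and none with shEGR1#9. With shEGR1#9, BTG1 and BTG3 lie on the edge of that fold. Their plain FPKM ratios to the control were 0.659 and 0.654, which are past it. Of all 11807 genes, 33.7% were past that fold with shEGR1#8 (19.9% lower) and 31.6% with shEGR1#9 (18.4% lower). Both hairpin libraries were above the control for 35.7% of genes and below it for 41.4%.

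These TMD8 values move with the short RNA named above. With short RNA left out and each library rescaled to the control's sum, an alternative added after the data were seen, BTG2 differed by 0.87 with each hairpin and the median of all genes by 0.33 and 0.34. Relative to that median, BTG2 differed by 0.54 and 0.53, TOB2 by 0.19 and 0.33, BTG1 by -0.59 and -0.54, BTG3 by -0.41 and -0.54, and TOB1 by -0.52 and -0.44 (#8 and #9). Before centring, the rescaled values of BTG1 (-0.26) and TOB1 (-0.19) with shEGR1#8 were no longer past 1.5-fold, whereas BTG2 with either hairpin and TOB2 with shEGR1#9 (0.67) were. These uncentred values carry the shift of all genes, and the share of all genes past the fold after rescaling is not given here. Relative to the median, BTG2 and TOB2 were not past 1.5-fold with either hairpin, and BTG1 with shEGR1#8 (-0.59) was just past it. The sign of each gene was the same with and without the rescaling. Because these hairpin libraries correlated more closely with the SUDHL2 control than with their own, the levels are set beside that control, at 12.3 FPKM for BTG1, 12.6 FPKM for BTG3, 22.1 FPKM for TOB1, 13.1 FPKM for TOB2 and 64.6 FPKM for BTG2. For BTG1, BTG3 and TOB1 both TMD8 hairpin libraries lay between the TMD8 and the SUDHL2 control. For BTG2 both lay above either control, and for TOB2 the shEGR1#8 library lay between them and the shEGR1#9 library above. The summed T and NK markers and the summed myeloid markers were also higher in both TMD8 hairpin libraries. The sum of 9 T and NK markers was 1.15 FPKM in the control, 3.72 FPKM with shEGR1#8 and 2.499 FPKM with shEGR1#9. That of 8 myeloid markers was 1.28, 3.03 and 1.75 FPKM. At most 1 marker of each of these lists was at 1 FPKM or more in any TMD8 library. The summed stromal, erythroid and epithelial markers were at 8.12, 7.55 and 11.5 FPKM, and the B-cell markers at 733, 567 and 757 FPKM. The part of the likeness and of these markers in the differences was not tested.

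In the libraries labelled SUDHL2, BTG2 measured 64.6 FPKM in the control, 97.5 FPKM with shEGR1#8 and 97.0 FPKM with shEGR1#9, differences of 0.59 and 0.58. BTG3 measured 12.6, 19.7 and 15.6 FPKM (0.60 and 0.28). TOB2 measured 13.1, 15.5 and 17.2 FPKM (0.22 and 0.36), and BTG1 12.3, 13.5 and 13.4 FPKM (0.12 and 0.11). TOB1 measured 22.1, 20.3 and 26.1 FPKM (-0.11 and 0.23), on either side of its control. The summed T and NK markers were at 1.86, 3.10 and 2.18 FPKM in these libraries, the myeloid ones at 2.19, 1.43 and 3.24 FPKM and the stromal, erythroid and epithelial ones at 6.66, 10.4 and 8.66 FPKM, and their part was not tested. BTG2 and BTG3 were past 1.5-fold with shEGR1#8 and none of the 5 with shEGR1#9. Of 11631 genes, 10.0% were past it with shEGR1#8 (6.12% higher) and 18.0% with shEGR1#9 (9.69% higher). BTG2 lies on the edge of that fold: centred on the median of all genes it was at 0.58 with shEGR1#8, just short of it. With short RNA left out the median of all genes moved by 0.11 and 0.14, and relative to it BTG2 was at 0.59 and 0.58. Both hairpin libraries were above the control for 37.3% of genes, so the 4 members that did so describe these libraries only.

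**Figure D4:**
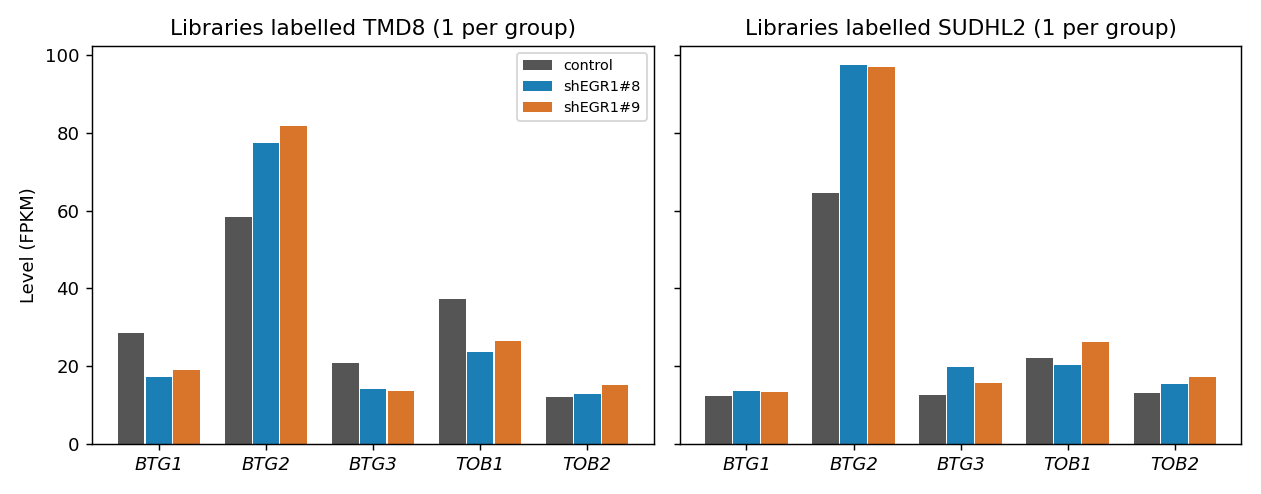
Level in FPKM (linear axis from 0) of the 5 genes in the 3 libraries labelled TMD8 and the 3 labelled SUDHL2, 1 bar per library and no error bars. BTG2 is above its control in all 4 hairpin libraries (77.4 and 81.6 against 58.4 FPKM, and 97.5 and 97.0 against 64.6 FPKM), while BTG1 and BTG3 are below it in TMD8 and above it in SUDHL2.

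Set side by side, BTG2 was the only member above every control of its own table in every hairpin library of all 3 tables, a pattern of 5.48% of the 9597 genes compared. In OCI-LY10 and SUDHL2 alone, BTG2 and BTG3 were, against 8.86% of genes. The BTG2 to BTG1 ratio of FPKM was 2.04 in the TMD8 control and 4.52 and 4.33 with the hairpins, and 5.24 in the SUDHL2 control and 7.24 and 7.23 with the hairpins. It was thus higher in every hairpin library than in the controls of the same line, as in OCI-LY10. In TMD8 both hairpin ratios lay between those of the TMD8 and the SUDHL2 control, as the levels of BTG1 did. The part of the likeness of these libraries to SUDHL2 in this ratio was not tested. The BTG3 to BTG1 ratio was 0.728, 0.827 and 0.723 in TMD8 and 1.02, 1.46 and 1.16 in SUDHL2, so it did not separate the TMD8 libraries. Of the 16 deadenylation genes, 0 were past 1.5-fold higher in any of the 4 hairpin libraries, and 3, 2, 0 and 1 were past it lower (TMD8 #8 and #9, SUDHL2 #8 and #9). Of all genes, 19.9, 18.4, 3.90 and 8.28% were past it lower in the same libraries, so the counts in TMD8 are near the background.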

How the data were processed

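RNA from 15 of the 19 samples was analysed, and the 4 chromatin libraries were not used here. Groups were read from sample titles and treatment labels. The deposited tables give 1 value per gene and library, read here as FPKM from the values, since no header or label names the unit. Bowtie2, HISAT, StringTie and build hg19 were used per the submitters' processing notes. For versions, roles, annotation and between-library scaling the sources used here give nothing. Per the labels' protocols, libraries were made with Illumina's TruSeq RNA chemistry, which does not mark strand. Read depth is unknown, so no counting interval is given.

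Lines with repeated names (4, 10 and 10) and 430 run-on lines of the SUDHL2 table were left out. The OCI-LY10 values of 6763 genes, BTG3 and TOB1 among them, carry more than 6 decimals, for a reason not stated. In OCI-LY10, genes at 1 FPKM or more in at least 3 of 9 libraries were fitted as log2(FPKM + 1) with a mean for each group and a trended prior variance, using limma 3.58.1 under R 4.3.3. The p-values were adjusted by Benjamini-Hochberg over all 10612 genes and called under 0.05. Fold changes on this scale understate changes of low genes. The fit was tested on simulated data. TMD8 and SUDHL2 were compared as differences between single libraries at 1.5-fold (0.585 on the log2 scale). Other steps used Python 3.11.15, numpy 2.4.6, pandas 2.3.3, scipy 1.17.1 and matplotlib 3.10.9.

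Named genes are the 5 members, EGR1, the 3 genes most like each member, the called genes and catalytic subunits of the family's lists, and the 3 most significant called genes of each other list. The members and lists were chosen with earlier results of these data known. TOP2A, MDM2, MS4A1, PAX5, RARA, PRMT1, CXADR, TOB1-AS1, BTG4, TOB2P1, EPCAM and PECAM1 fall outside the rule and were named after their values were seen. Deviations from the group means correlated at -0.188 to 0.0597 between same-numbered control and hairpin libraries. They correlated at 0.134 to 0.26 between same-numbered hairpin libraries and at -0.269 to 0.146 between differently numbered ones. The numbers may thus pair the 2 hairpin groups with each other, which these few values do not establish. No pairing with the controls was seen. Library likeness was the Pearson r of log2(FPKM + 1). Alternatives were another pseudocount, no filter, other scalings, array weights, a replicate block and leaving out libraries. Gene symbols were matched to RefSeq for promoters and overlapping genes, and all 5 members matched.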

Additional observations from a re-analysis of the deposited data

Results flagged for a closer look

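BTG1 lay on opposite sides of its control in the lines with single libraries. On the log2(FPKM + 1) scale the mean of its 2 hairpin libraries differed from the control by -0.642 in TMD8, where both were lower, and by 0.116 in SUDHL2, where both were higher. The SUDHL2 difference is small, at 1.09 times the control level with each hairpin. The TMD8 hairpin samples are those that correlated more closely with the SUDHL2 control than with their own. The difference between the lines was not tested.

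BTG3 differed by 0.376 in OCI-LY10, where all 6 hairpin libraries lay above the controls, by 0.443 in SUDHL2, where both did, and by -0.551 in TMD8, where both lay below. The difference between the lines was not tested, and the TMD8 libraries are those whose hairpin samples correlated more closely with SUDHL2 than with their own control.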

How the results depend on the processing

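For OCI-LY10 there were 16 alternatives. Of these, leaving out both hairpin libraries numbered 3 was chosen after seeing the data, as were the rescaling in TMD8 and SUDHL2 and a replicate block over the hairpin libraries alone, which again gave 0 called genes between the hairpins. The BTG2 call and its direction held in all 16 for both hairpins averaged (limma adjusted p 9.94e-05 to 0.00727) and for each one. BTG3 kept its direction in all 16 and its call in 14, 8 and 9 (both, shEGR1#8, shEGR1#9). TOB1 and TOB2 were never called. No pairing of the hairpin libraries with the controls by replicate number was seen in the data. The replicate block over all 9 libraries lowered the called genes from 566 to 349 for shEGR1#8 and from 540 to 351 for shEGR1#9, and the BTG and TOB genes called from 2 to 1 for each (BTG3 at limma adjusted p = 0.0689 and 0.0653). Leaving out 1 library gave 285 to 1312 called genes for both hairpins (908 with all), 134 to 696 for shEGR1#8, 144 to 1143 for shEGR1#9 and 0 to 9 between the hairpins, and 1 to 2 called BTG and TOB genes in each of the first 3. Leaving out any 1 control gave 285 to 315, 134 to 161 and 144 to 192 in the first 3 comparisons. Array weights gave 1914 genes for both hairpins and 1950 for shEGR1#9. Between the hairpins, no filter gave 1 gene, as did leaving out both hairpin libraries numbered 3. That step left 1 called BTG or TOB gene for each hairpin. In SUDHL2 with shEGR1#8, a pseudocount of 0.1 raised the genes past 1.5-fold from 1166 to 1866.

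Signs turned only for values near 0, and the cause was not tested. BTG1 for both hairpins became 0.011 with array weights and 0.028 without both libraries numbered 3, and lay at -0.077 to 0.052 when 1 library was left out. For shEGR1#8 it became -0.023 with quantile normalization and -0.021 with median-ratio scaling, and lay at -0.060 to 0.069 when 1 library was left out. For shEGR1#9 it became 0.0081 without both libraries numbered 3 and lay at -0.094 to 0.035 with 1 left out. Between the hairpins, leaving out 1 library gave -0.073 to 0.0078 for BTG1 and -0.0081 to 0.063 for BTG3, which was -0.018 without both libraries numbered 3. TOB2 for shEGR1#8 became -0.0011 with quantile normalization. CNOT8 for both hairpins became -0.023 with quantile normalization and -0.019 with median-ratio scaling, and lay at -0.024 to 0.054 with 1 library left out.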

Other observations

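BTG4, the family member known for clearing maternal messages in oocytes, was listed at 0 in all 15 libraries. The pseudogene TOB2P1 was at 0.0367 to 0.193 FPKM in OCI-LY10, 1.07 to 1.35 FPKM in TMD8 and 0.969 to 2.95 FPKM in SUDHL2. TOB1-AS1 measured 1.41 FPKM in the TMD8 control and 0.446 and 0.927 FPKM with shEGR1#8 and shEGR1#9, below the control as TOB1 was, and in SUDHL2 0.935, 0.697 and 0.570 FPKM in the same order. Of the 11 adaptors of the deadenylase at 1 FPKM or more, 6 were past 1.5-fold higher in TMD8 with shEGR1#8 and 4 with shEGR1#9, and 1 in each SUDHL2 hairpin library. In TMD8, 13.8 and 13.2% of all genes were past that fold upward.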
